A study of Mus musculus with 9 samples.

Results

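A set of 10 genes of vascular tone were followed in mouse brain endothelial cells under 3 kinds of flow. They are the genes of the peptides endothelin-1 (Edn1) and adrenomedullin (Adm), of the peptidases ECE1 and ACE (Ece1, Ace), of the receptors EDNRB and CALCRL (Ednrb, Calcrl), of the receptor partners RAMP2 and RAMP3 (Ramp2, Ramp3), and of the cyclooxygenases COX-1 and COX-2 (Ptgs1, Ptgs2). They were taken by symbol from the deposited gene table, where each symbol had an entry, so that all 10 of the 10 genes, out of 31232 in all, were measured. bEnd.3 is an established mouse line of brain endothelial cells, grown here on glass coverslips and exposed to flow in a parallel-plate chamber. PSS was laminar flow at 10 dyne/cm2, named by the submitters as physiological shear. HSS was laminar flow at 20 dyne/cm2, and Vortex was a vortical flow at 0.5 to 2 dyne/cm2, which the protocol calls VSS. The submitters set HSS and Vortex as models of an early and a late stage of intracranial aneurysm. Polyadenylated RNA was sequenced from 3 libraries per group. All 9 libraries come from the same cell line and the same growth medium. No label says that the 3 libraries of a group are separate cultures, and the protocol speaks of mixed RNA, so the p-values measure the spread between these libraries, which may be technical.

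Endothelin-1 is made by endothelial cells as a longer precursor, and ECE1 makes the last cleavage that yields the constrictor peptide. On endothelial cells EDNRB takes up endothelin-1 and couples to nitric oxide and prostacyclin release, whereas the constrictor response is mostly that of EDNRA on smooth muscle. Adrenomedullin is a dilator peptide that acts on CALCRL, a receptor that needs a RAMP protein to reach the cell surface and that takes its ligand preference from the RAMP it pairs with. ACE, on the endothelial surface, makes angiotensin II and degrades bradykinin. COX-1 and COX-2 turn arachidonic acid into prostaglandin H, the precursor of prostacyclin, thromboxane and the prostaglandins, and COX-2 is the inducible form.

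Library totals ran from 17407217 to 22965802 counts. Levels are given as CPM, counts scaled per 1000000 of the TMM-adjusted library total, and as FPKM, the deposited values per kilobase of gene and scaled to the library total, where genes are compared with each other. Vortex replicate 2 stood apart: the Pearson correlations between log2 CPM of Vortex libraries were 0.852 to 0.962, against 0.977 to 0.992 within PSS and 0.992 to 0.993 within HSS. Pecam1, an endothelial adhesion gene, had 30567 counts in that library and 23 to 1116 in the other 8. The summed CPM of 12 endothelial marker genes was 2510 to 3210 in PSS, 706 to 720 in HSS, and 1240, 7140 and 1640 in Vortex replicates 1, 2 and 3. By edgeR (the test is described in the next paragraph), 8 of those 12 fell in HSS against PSS, where 7.87% of all tested genes were called, 1 rose in Vortex against PSS (13.4%) and 9 rose in Vortex against HSS (7.04%). Leaving out Vortex replicate 2, 11 fell and 1 rose in HSS against PSS (29.1%), 10 fell and 1 rose in Vortex against PSS (36.3%), and 10 rose in Vortex against HSS (23.9%). Cldn5, a tight junction gene of brain endothelium, had 1110 to 1202 counts in PSS libraries and 0 to 2 in HSS libraries. Flt1, another of the 12, went the other way, with a mean CPM of 231 in PSS, 334 in HSS and 463.5 in Vortex. The endothelial sum thus does not describe each marker. Summed markers of fibroblasts (7 genes) were 663 to 890 CPM in PSS, 1060 to 1110 in HSS, 110 in Vortex replicate 2 and 877 and 1040 in the other Vortex libraries. Of the 6 tested, 0 rose and 1 fell in each comparison. Without Vortex replicate 2, 7 were tested. Then 2 rose and 2 fell in HSS and in Vortex against PSS, and 2 rose and 3 fell in Vortex against HSS. From PSS to HSS the mean CPM of Col3a1 went from 478 to 760.5 and that of Dpt from 3.69 to 0.325, so the sum does not describe each gene. The summed CPM of 7 leukocyte markers was 9.83 to 11.6 in PSS, 35.3 to 38.5 in HSS, and 76.0, 29.2 and 70.1 in Vortex replicates 1, 2 and 3. Of these, 3 were tested (Cd68, Csf1r and Cd14), of which 2 rose in HSS against PSS, 3 in Vortex against PSS and 1 in Vortex against HSS (2, 3 and 2 without Vortex replicate 2), while Ptprc, the pan-leukocyte gene, had at most 1 count in any library. In these bulk samples, fewer cells of a type and less RNA per cell cannot be told apart, and the part of the marker levels in the results below was not tested. The tests are therefore given with and without Vortex replicate 2.

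A gene was called when edgeR's quasi-likelihood test, fitted to all genes with enough counts, gave a Benjamini-Hochberg adjusted p under 0.05. The fit gave a gene the same spread in all groups, although HSS libraries lay closest together and Vortex libraries furthest apart. A p-value or standard error thus also draws on the group not compared, and dropping a library of that group can change a call. With only the 6 libraries compared, the share of genes called went from 7.87% to 40.8% in HSS against PSS. It went from 13.4% to 0.488% in Vortex against PSS and from 7.04% to 0.438% in Vortex against HSS. All 10 genes were among the 15774 tested. In HSS against PSS, 3 of the 10 fell and 0 rose, where 7.87% of all tested genes were called: Ednrb, Ramp2 and Calcrl. When Vortex replicate 2 was left out, 5 of the 10 fell against 29.1% of genes called, with Edn1 and Ace added. With only the 6 libraries compared, 7 fell against 40.8%, with Adm and Ptgs1 added. The group ranges did not overlap for 8 of the 10, with 7 lower in HSS and Ece1 higher. Ranges were also apart for 56.2% of all tested genes. The median log2 fold change of the 10 was -0.67, against -0.0049 over all tested genes (-0.67 and -0.0038 without Vortex replicate 2).

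In Vortex against PSS, 4 of the 10 rose (Ramp3, Ptgs2, Ace and Ece1) and Calcrl fell, where 13.4% of all tested genes were called. Leaving out Vortex replicate 2 gave 5 higher and 3 lower against 36.3%, with Adm added to the rises and Edn1 and Ramp2 to the falls. With only the 6 libraries compared, edgeR called 0 of the 10 against 0.488% of genes, although 5 of the 10 had an unadjusted p under 0.05. DESeq2's Wald test on all 9 libraries called 5 of the 9 it tested, against 22.2% of all genes. Ranges did not overlap for 6 of the 10, against 30.0% of all tested genes. With Vortex replicate 2 left out they did not overlap for 9 of the 10, with 6 higher and 3 lower, against 53.7%. The median log2 fold change was 0.50 against 0.11 over all tested genes, and 0.42 against 0.013 without that library.

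In Vortex against HSS, 6 of the 10 rose and 0 fell, where 7.04% of all tested genes were called: Ednrb, Ramp2, Ramp3, Ptgs2, Ace and Adm. Leaving Vortex replicate 2 out, 7 rose against 23.9%, with Calcrl added. With only the 6 libraries compared, 1 gene, Ace, was called against 0.438%. The ranges were apart for 9 of the 10, all higher in Vortex, against 36.4% of all tested genes. Edn1 was the exception. With Vortex replicate 2 left out, all 10 were apart, with 9 higher and Edn1 lower, against 58.8%. The median log2 fold change was 2.17 against 0.10 over all tested genes, and 2.04 against 0.029 without that library. The 3 comparisons share libraries pairwise, so they are not independent of each other.

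**Figure D1:**
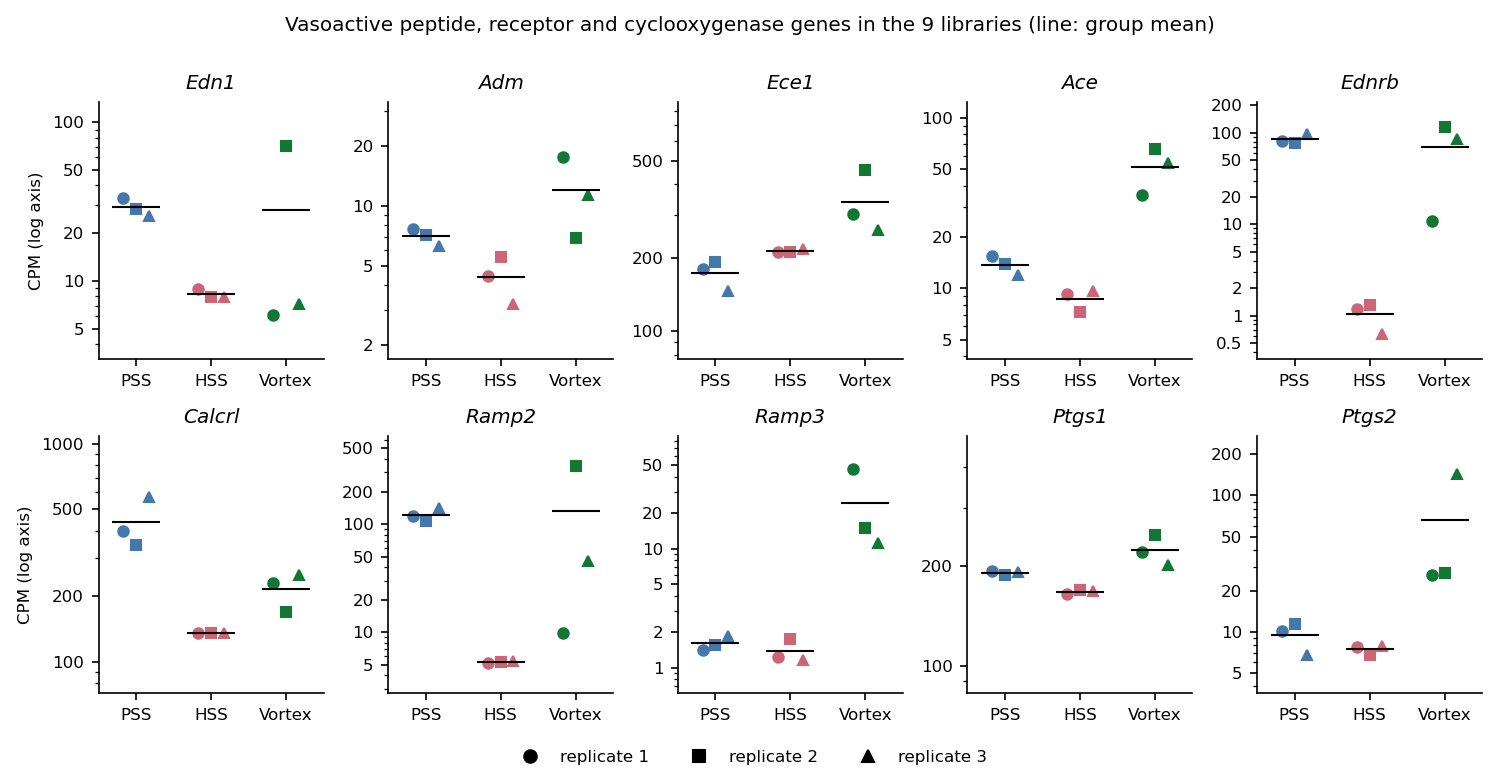
CPM of the 10 genes (log axis) in each of the 9 libraries, with marker shapes for the replicates and a line at the group mean. HSS libraries lie close together and low for Ednrb, Calcrl and Ramp2, and Vortex replicate 2 lies far above the other Vortex libraries for Edn1 and Ramp2.

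On the per-length scale the PSS cells had a profile led by the receptor Calcrl. Mean FPKM in PSS was 93.7 for Calcrl, 51.5 for Ptgs1, 38.7 for Ramp2, 34.2 for Ece1, 20.9 for Ednrb and 14.3 for Edn1, with Adm at 4.55, Ace at 2.73, Ptgs2 at 2.18 and Ramp3 at 1.22. In HSS the mean FPKM of Ptgs1 (44.1) and Ece1 (41.1) came before that of Calcrl (28.5), and the other genes lay at 3.95 FPKM (Edn1) or lower, with Ramp2 at 1.64 and Ednrb at 0.248. In Vortex the means were 59.3 for Ece1, 53.5 for Ptgs1, 41.4 for Calcrl and 37.2 for Ramp2, then 16.1 for Ramp3, 15.5 for Ednrb, 13.7 for Ptgs2, 12.1 for Edn1, 9.11 for Ace and 6.88 for Adm. The Vortex means of Ramp2 (SD 50.7 FPKM), Edn1 (SD 15.8 FPKM) and Ptgs2 (SD 14.5 FPKM) have a spread larger than the mean and give these genes no place in that order. Ramp3 and Ednrb, with SDs of 12.6 and 11.7 FPKM, are not told apart by their means.

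Edn1 (ENSMUSG00000021367) had 33.5, 28.4 and 25.9 CPM in PSS replicates 1, 2 and 3, and 8.96, 7.96 and 7.89 CPM in HSS. In Vortex it had 6.12, 71.0 and 7.21 CPM, so that Vortex replicates 1 and 3 lay below every HSS library and replicate 2 above every PSS library. The group means were 29.2 ± 3.89 (SD, n = 3) in PSS, 8.27 ± 0.598 in HSS and 28.1 ± 37.1 in Vortex, or 6.66 ± 0.770 (n = 2) without Vortex replicate 2. HSS and PSS did not overlap, and the log2 fold change was -1.82 ± 0.81 (SE; edgeR adjusted p = 0.217) with all 9 libraries, -1.82 ± 0.16 (adjusted p = 2.59e-05) without Vortex replicate 2, and had an adjusted p of 2.21e-05 with only the PSS and HSS libraries. The fold change was the same with and without that library and the SE was not. Vortex against PSS was -0.05 ± 0.78 (adjusted p = 0.972) with all libraries and -2.13 ± 0.19 (adjusted p = 3.27e-05) without Vortex replicate 2. Vortex against HSS was 1.77 ± 0.81 (adjusted p = 0.201) and -0.31 ± 0.18 (adjusted p = 0.245), so neither fit called it and the sign turned with that library.

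The RefSeq promoter windows of 4 genes whose levels carry these results are shown where each gene is described, as 250 bases before to 50 bases from the transcription start, 5′ to 3′ on the strand of the gene, on GRCm38.p6. The build of the counts is GRCm39, so these coordinates describe only the windows. Capitals mark matches to 7 short motifs searched on both strands: the TATA box as TATAAA, the E-box as CACGTG, the hypoxia element core as ACGTG, which the E-box contains, the AP-1 site as TGANTCA, the cyclic AMP element as TGACGTCA, the GATA motif as AGATAA and the KLF motif as CCACACCC. Over 32851 windows of mouse genes, the shares with a match were 13.6%, 7.15%, 19.6%, 7.81%, 1.79%, 11.2% and 3.56% in that order. The Edn1 window, chr13:42301226-42301525 on the plus strand, holds a GATA match on the opposite strand at bases 9 to 14 counted from the start, and the hypoxia element core on the opposite strand at bases 22 to 26. A match describes letters and is no evidence that a factor binds there.
Edn1 promoter: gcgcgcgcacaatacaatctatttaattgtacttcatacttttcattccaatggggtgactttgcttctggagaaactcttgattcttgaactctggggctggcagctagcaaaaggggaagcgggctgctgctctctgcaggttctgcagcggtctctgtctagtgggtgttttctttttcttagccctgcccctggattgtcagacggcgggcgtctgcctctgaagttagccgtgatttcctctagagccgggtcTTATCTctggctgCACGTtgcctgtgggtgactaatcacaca

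Adm (ENSMUSG00000030790) had low levels throughout, with 7.68, 7.15 and 6.25 CPM in PSS, 4.43, 5.55 and 3.21 CPM in HSS, and 17.7, 6.91 and 11.4 CPM in Vortex. HSS lay below the PSS range in all 3 libraries, and Vortex replicate 2 lay inside the PSS range while the other Vortex libraries lay above it. Adm rose in Vortex against HSS by 1.45 ± 0.36 on the log2 scale (adjusted p = 0.0467), and by 1.72 ± 0.27 (adjusted p = 0.0021) without Vortex replicate 2. That call ended when any other library was left out (adjusted p 0.0585 to 0.194). Among the planned changes of scaling, filter, model or test, 8 ended it and 3 kept it. Those that ended it included library totals in place of TMM scaling (0.0642) and the removal of a GC trend (0.0742). HSS against PSS was -0.68 ± 0.36 (adjusted p = 0.301), or adjusted p = 0.0642 without Vortex replicate 2. Vortex against PSS was 0.77 ± 0.36 (adjusted p = 0.184), and 1.04 ± 0.26 (adjusted p = 0.0117) without that library. The ratio of Edn1 to Adm in FPKM, a constrictor peptide against a dilator one, was 3.30, 3.00 and 3.13 in PSS, and 1.53, 1.09 and 1.86 in HSS. In Vortex the ratio was 0.262, 7.78 and 0.478, so the libraries lay on both sides of 1.

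Ece1 (ENSMUSG00000057530), the gene of the enzyme that matures endothelin-1, had 180, 192 and 145.5 CPM in PSS, 211, 211 and 217 CPM in HSS, and 301, 459 and 258 CPM in Vortex. The 3 groups stood in that order with no overlap. Ece1 rose in Vortex against PSS by 0.98 ± 0.23 (adjusted p = 0.0254), and by 0.69 ± 0.14 (adjusted p = 0.00425) without Vortex replicate 2, the highest library. The call ended without any 1 HSS library (adjusted p 0.057 to 0.0574) or any 1 PSS library (0.066 to 0.0982). Among the planned changes of scaling, filter, model or test, 4 ended it, library totals in place of TMM (0.051) among them, and 7 kept it. HSS against PSS was 0.30 ± 0.23 (adjusted p = 0.483) and Vortex against HSS 0.67 ± 0.23 (adjusted p = 0.103). Leaving out the same library gave adjusted p of 0.105 and 0.0718, so neither was called.

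Ace (ENSMUSG00000020681) had 15.4, 14 and 11.9 CPM in PSS, 9.24, 7.29 and 9.57 CPM in HSS, and 35.1, 65.5 and 54.5 CPM in Vortex. The groups did not overlap, with HSS lowest and Vortex highest. Group means were 13.8 ± 1.72, 8.70 ± 1.24 and 51.7 ± 15.4 CPM (SD, n = 3 each). Ace rose in Vortex against PSS by 1.91 ± 0.26 (adjusted p = 0.00444) and against HSS by 2.57 ± 0.27 (adjusted p = 0.00334), and leaving out any 1 library ended neither call. The adjusted p without Vortex replicate 2 were 0.000291 and 0.000188. Of the 10 genes, Ace was the only one called in Vortex against HSS with just the 6 libraries compared (adjusted p = 0.0437). HSS against PSS was -0.66 ± 0.26 (adjusted p = 0.159). It was called without Vortex replicate 2 (-0.66 ± 0.20, adjusted p = 0.0337), without Vortex replicate 1 (0.0476), with the GC trend removed (0.0355) and with only the PSS and HSS libraries (0.00865).

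Ednrb (ENSMUSG00000022122) had the largest difference between HSS and PSS of the 10 genes. It had 81.7, 76.5 and 98.1 CPM in PSS and 1.18, 1.29 and 0.631 CPM in HSS, the latter from 25, 23 and 12 counts. In Vortex it had 10.9, 116 and 85.5 CPM. HSS lay below all other libraries, Vortex replicate 3 lay inside the PSS range, replicate 2 above it and replicate 1 below it. Ednrb fell in HSS against PSS by 6.36 ± 0.83 on the log2 scale (adjusted p = 0.00379, and 0.000139 without Vortex replicate 2), and leaving out any 1 library did not end the call. It rose in Vortex against HSS by 6.09 ± 0.82 (adjusted p = 0.00888), and by 5.54 ± 0.74 (adjusted p = 0.00104) without Vortex replicate 2, but not without any 1 of the HSS libraries (0.0758 to 0.0789). Vortex against PSS was -0.27 ± 0.64 (adjusted p = 0.813), and -0.82 ± 0.60 (adjusted p = 0.31) without Vortex replicate 2. Ednrb and the summed endothelial markers were both lowest in HSS and both highest in Vortex replicate 2. The part of the markers' shift in the Ednrb values was not tested.

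The Ednrb window, chr14:103843652-103843951 on the minus strand, is shown because Ednrb had the widest range of the 10 genes. None of the 7 motifs matched in it.
Ednrb promoter: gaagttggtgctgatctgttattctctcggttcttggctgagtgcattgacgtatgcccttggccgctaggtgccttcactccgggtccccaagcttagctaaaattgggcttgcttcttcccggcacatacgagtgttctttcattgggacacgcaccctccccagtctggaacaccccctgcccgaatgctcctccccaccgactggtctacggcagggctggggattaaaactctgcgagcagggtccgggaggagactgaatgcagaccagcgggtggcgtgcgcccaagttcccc

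Calcrl (ENSMUSG00000059588), the shared receptor of adrenomedullin and CGRP, had 398.5, 344.5 and 574 CPM in PSS and 136, 136 and 136 CPM in HSS. In Vortex it had 231, 169 and 251 CPM. The groups did not overlap and stood in the order PSS, Vortex, HSS. Calcrl fell in HSS against PSS by 1.69 ± 0.24 (adjusted p = 0.0046, and 8.4e-05 without Vortex replicate 2), and the call held without any 1 library. It fell in Vortex against PSS by 1.02 ± 0.23 (adjusted p = 0.0219), or by 0.87 ± 0.20 (adjusted p = 0.00755) without Vortex replicate 2. That second call ended without any 1 HSS library (adjusted p 0.051 to 0.0518), PSS replicate 1 (0.0683) or PSS replicate 3 (0.0599), and with the GC trend removed the log2 fold change was -0.00076 (adjusted p = 0.999). Vortex against HSS was 0.67 ± 0.23 (adjusted p = 0.103). It was 0.82 ± 0.19 (adjusted p = 0.0134) without Vortex replicate 2 and 1.53 (adjusted p = 0.0184) with the GC trend removed.

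Ramp2 (ENSMUSG00000001240), whose protein makes CALCRL an adrenomedullin receptor, had 119, 106 and 142 CPM in PSS and 5.19, 5.27 and 5.42 CPM in HSS. In Vortex it had 9.90, 345 and 45.6 CPM. All HSS libraries were below all others, and Vortex replicate 2 was above every PSS library while the other Vortex libraries were below them. Ramp2 fell in HSS against PSS by 4.53 ± 1.07 (adjusted p = 0.0354, and 7.63e-05 without Vortex replicate 2). The call ended without any 1 HSS library (adjusted p 0.144 to 0.145) or any 1 PSS library (0.0855 to 0.112). It rose in Vortex against HSS by 4.66 ± 1.08 (adjusted p = 0.0369), or by 2.40 ± 0.47 (adjusted p = 0.00648) without Vortex replicate 2, a call that also ended without any 1 HSS library (0.154 to 0.161) or any 1 PSS library (0.0628 to 0.0754). Among the planned changes of scaling, filter, model or test, 3 ended the call in HSS against PSS and 8 kept it. In Vortex against HSS, 6 ended the call and 5 kept it. Vortex against PSS was 0.13 ± 0.92 (adjusted p = 0.944) with all libraries and -2.13 ± 0.48 (adjusted p = 0.00698) without Vortex replicate 2. The sign with all libraries also turned with library totals in place of TMM (-0.055). Ramp2, like Ednrb, followed the order of the summed endothelial markers among the Vortex libraries, with replicate 2 highest, then 3, then 1, which was not tested.

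Ramp3 (ENSMUSG00000041046), the partner that gives CALCRL a receptor for adrenomedullin and for its relative adrenomedullin 2, was near the lower limit of these libraries in both laminar groups. It had 1.41, 1.56 and 1.85 CPM in PSS and 1.23, 1.74 and 1.16 CPM in HSS, from 22 to 39 counts each. In Vortex it had 46.5, 14.8 and 11.2 CPM, from 737, 311 and 227 counts. All Vortex libraries lay above all others, and PSS and HSS overlapped. Ramp3 rose in Vortex against PSS by 3.90 ± 0.55 (adjusted p = 0.00479) and against HSS by 4.13 ± 0.56 (adjusted p = 0.00888). Fitted without Vortex replicate 2, these were 4.15 ± 0.50 (adjusted p = 0.000225) and 4.38 (adjusted p = 0.000533), and without Vortex replicate 1, the highest library, 2.96 (adjusted p = 0.00218) and 3.22 (adjusted p = 0.00183). No single library ended the call against PSS, while the call against HSS ended without any 1 HSS library (0.0745 to 0.0817). HSS against PSS was -0.23 ± 0.53 (adjusted p = 0.852, and 0.768 without Vortex replicate 2).

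The Ramp3 window, chr11:6658283-6658582 on the plus strand, is shown because Ramp3 had the largest difference between Vortex and PSS of the 10 genes. None of the 7 motifs matched in it.
Ramp3 promoter: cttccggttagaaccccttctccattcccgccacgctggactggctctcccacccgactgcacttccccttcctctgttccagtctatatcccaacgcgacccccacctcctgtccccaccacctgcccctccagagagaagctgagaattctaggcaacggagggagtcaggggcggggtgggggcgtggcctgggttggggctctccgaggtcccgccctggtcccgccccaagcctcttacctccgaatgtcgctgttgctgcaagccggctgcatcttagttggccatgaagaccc

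The balance of the RAMP partners differed between the groups on the per-length scale. The ratio of Ramp3 to Ramp2 in FPKM was 0.0285, 0.0351 and 0.0311 in PSS and 0.565, 0.789 and 0.511 in HSS. In Vortex it was 11.2, 0.103 and 0.588. All HSS and Vortex libraries lay above all PSS libraries. In HSS, Ramp2 was low with Ramp3 near its PSS level, while all Vortex libraries had more Ramp3 than either laminar group. Vortex replicates 1 and 3 also had less Ramp2 than PSS, at 2.73 and 13.4 FPKM against 34.2 to 43.7. Vortex replicate 2 had more, at 95.4 FPKM. Vortex replicate 1, with the highest Ramp3 and the lowest Ramp2 of its group, was the only library with more Ramp3 than Ramp2 per length.

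**Figure D2:**
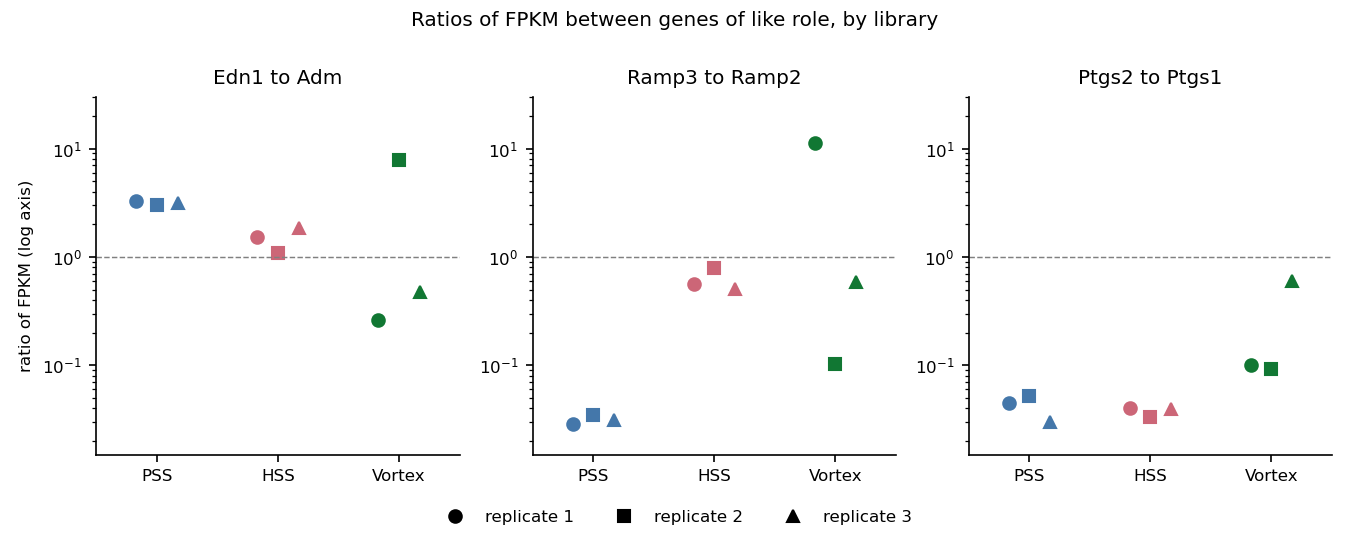
Ratios of FPKM of Edn1 to Adm, Ramp3 to Ramp2 and Ptgs2 to Ptgs1 (log axis) in each library, with marker shapes for the replicates and a dashed line at 1. The ratio of Ramp3 to Ramp2 is 0.0285 to 0.0351 in PSS and 0.511 to 0.789 in HSS, and Vortex libraries spread from 0.103 to 11.2.

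Ptgs1 (ENSMUSG00000047250), the constitutive cyclooxygenase, had 193, 188 and 192 CPM in PSS, 165, 170 and 168 CPM in HSS, and 220, 248.9 and 203 CPM in Vortex. It varied least of the 10 genes, and its groups did not overlap in CPM. In the deposited FPKM, Vortex (50.5 to 58.6) overlapped PSS (50.2 to 52.8), while HSS lay below both. HSS against PSS was -0.19 ± 0.15 (adjusted p = 0.514), Vortex against PSS 0.23 ± 0.15 (adjusted p = 0.349) and Vortex against HSS 0.42 ± 0.15 (adjusted p = 0.118). None was called, and without Vortex replicate 2 the adjusted p were 0.181, 0.339 and 0.0526. With only the PSS and HSS libraries, the fall in HSS was called (adjusted p = 0.0493).

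Ptgs2 (ENSMUSG00000032487), the inducible cyclooxygenase, had 10.2, 11.5 and 6.82 CPM in PSS, 7.78, 6.73 and 7.89 CPM in HSS, and 26.05, 27.0 and 144 CPM in Vortex. All Vortex libraries lay above all others, and here replicate 3 was the high one, with replicate 2 close to replicate 1. Ptgs2 rose in Vortex against PSS by 2.79 ± 0.64 (adjusted p = 0.0231) and against HSS by 3.14 ± 0.65 (adjusted p = 0.0272). Without Vortex replicate 2 these were 3.17 ± 0.54 (adjusted p = 0.00152) and 3.51 ± 0.55 (adjusted p = 0.00214). Leaving out Vortex replicate 3, the highest library, gave 1.48 (adjusted p = 0.0148) and 1.84 (adjusted p = 0.0137). The call against PSS ended without any 1 PSS library (0.0753 to 0.102), and that against HSS without any 1 HSS library (0.129 to 0.133), PSS replicate 1 (0.06) or PSS replicate 2 (0.0511). Among the planned changes of scaling, filter, model or test, 5 ended the call against PSS and 6 kept it. Against HSS, 4 ended it and 7 kept it. HSS against PSS was -0.35 ± 0.61 (adjusted p = 0.796, and 0.641 without Vortex replicate 2), with overlapping ranges. The ratio of Ptgs2 to Ptgs1 in FPKM was 0.0448, 0.0518 and 0.0302 in PSS, 0.0401, 0.0336 and 0.0398 in HSS, and 0.10, 0.0919 and 0.603 in Vortex. COX-1 transcripts were thus the more abundant per length in every library.

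The Ptgs2 window, chr1:150099781-150100080 on the plus strand, is shown because Ptgs2 is the inducible member of the pair and rose in Vortex. It holds an E-box at bases 17 to 22 from the start, which contains the hypoxia element core on both strands.
Ptgs2 promoter: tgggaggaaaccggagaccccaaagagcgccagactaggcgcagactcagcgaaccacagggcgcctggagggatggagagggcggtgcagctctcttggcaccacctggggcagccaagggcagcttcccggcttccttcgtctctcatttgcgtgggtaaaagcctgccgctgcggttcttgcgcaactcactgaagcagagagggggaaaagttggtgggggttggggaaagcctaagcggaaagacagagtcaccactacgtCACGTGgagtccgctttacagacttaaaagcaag

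**Figure D3:**
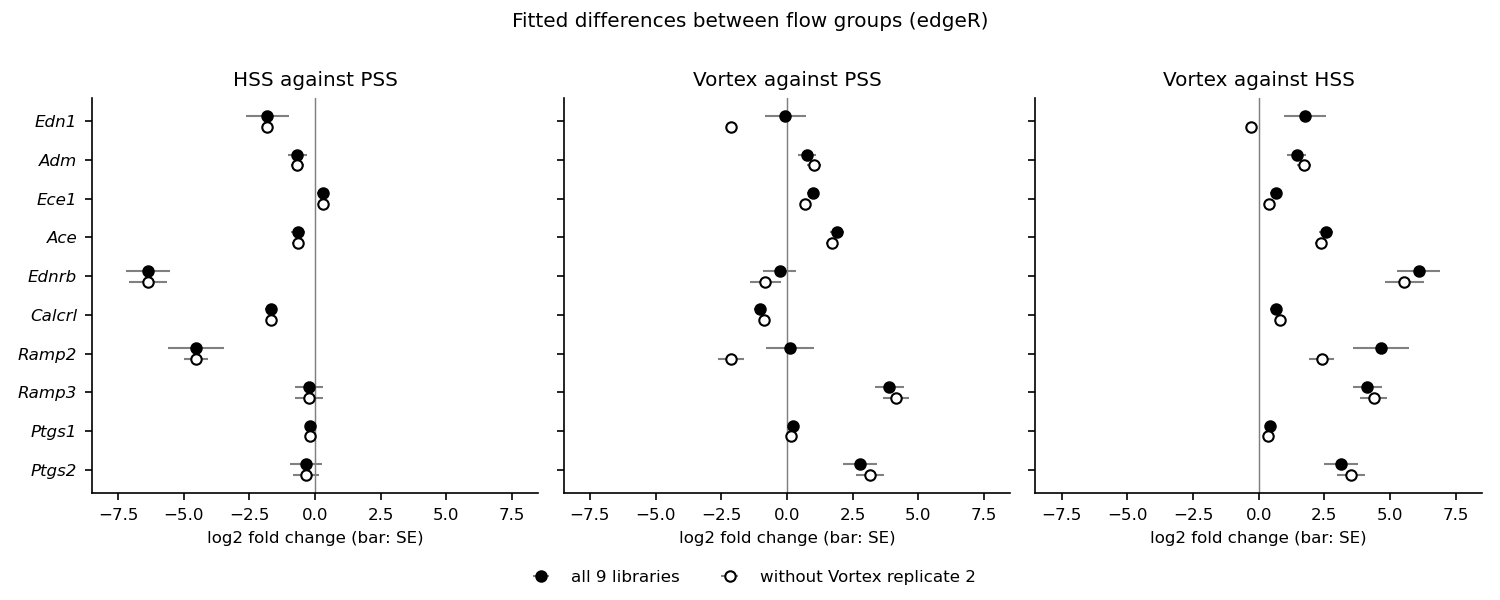
Log2 fold changes of the 10 genes in the 3 comparisons with their standard errors, from all 9 libraries and without Vortex replicate 2. Ednrb is at -6.36 in HSS against PSS, Ramp3 is at 3.90 in Vortex against PSS, and Edn1 and Ramp2 in the Vortex comparisons move with Vortex replicate 2.

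Around these genes, 55 further genes of the same pathways were listed. Of these, 51 were in the table and 30 were tested, while Agtr1b, Agtr2, Kng1 and Ptgdr were not analysed here. In HSS against PSS, 5 of the 30 rose and 0 fell, against 7.87% of all tested genes called, and their median log2 fold change was 0.32 against -0.0049. In Vortex against PSS, 6 rose and 1 fell against 13.4%, with a median of -0.04 against 0.11. In Vortex against HSS, 0 rose and 1 fell against 7.04%, with a median of 0.24 against 0.10. Without Vortex replicate 2, 31 were tested. The counts were then 8 higher and 4 lower against 29.1%, 9 higher and 4 lower against 36.3%, and 8 higher and 3 lower against 23.9%, in the same order. Their medians were 0.30, 0.24 and 0.39, against -0.0038, 0.013 and 0.029 over all genes. Whether the list differed from all genes was not tested.

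The prostanoid list made up 20 of the 30 tested genes. It held 4 of the 5 calls in HSS against PSS, 6 of the 7 in Vortex against PSS and the 1 in Vortex against HSS. Slco2a1, the transporter that takes prostaglandins back into cells, had 19.1, 16.4 and 11.9 CPM in PSS, 45.1, 49.1 and 49.7 in HSS and 74.8, 52.7 and 84.0 in Vortex. It rose against PSS by 1.60 ± 0.24 in HSS (adjusted p = 0.00602) and by 2.16 ± 0.25 in Vortex (adjusted p = 0.00277), and no single library ended either call. Without Vortex replicate 2 these were 1.60 ± 0.17 (adjusted p = 9.37e-05) and 2.33 ± 0.19 (adjusted p = 1.7e-05). Abcc4, an exporter of prostaglandins and cyclic nucleotides, had 48.9 to 74.2 CPM in PSS, 142 to 146 in HSS and 138 to 171 in Vortex. It rose by 1.15 ± 0.20 (adjusted p = 0.0107) and 1.29 ± 0.20 (adjusted p = 0.00612), the former not without any 1 HSS library (0.0572 to 0.0605). Leaving out Vortex replicate 2 gave 1.15 ± 0.15 (adjusted p = 0.000385) and 1.38 ± 0.17 (adjusted p = 0.000228). Slco2a1 and Abcc4 were thus both higher under HSS and under Vortex than under PSS, in comparisons that share the PSS libraries.

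Ptgir, the prostacyclin receptor, had 1.06, 1.12 and 1.14 CPM in PSS, 5.00, 5.16 and 5.10 in HSS and 10.8, 3.19 and 9.13 in Vortex. PSS lay below all other libraries. Ptgir rose by 2.20 ± 0.43 in HSS (adjusted p = 0.0172) and by 2.79 ± 0.44 in Vortex (adjusted p = 0.00618). The first call ended without any 1 HSS or PSS library (0.0694 to 0.0887). With Vortex replicate 2 left out, the changes were 2.19 ± 0.21 (adjusted p = 3.87e-05) and 3.16 ± 0.22 (adjusted p = 7.01e-06). Ptges2, a prostaglandin E synthase, rose by 1.03 ± 0.20 (adjusted p = 0.0166) and 0.91 ± 0.20 (adjusted p = 0.0191), with calls that ended without PSS replicate 1 (0.0971 and 0.0988), PSS replicate 3 (0.0662 and 0.0654) and, in HSS, any 1 HSS library (0.0747 to 0.0956). Its changes with Vortex replicate 2 left out were 1.03 ± 0.14 (adjusted p = 0.000401) and 0.74 ± 0.15 (adjusted p = 0.00424). Ptges, the inducible prostaglandin E synthase, had 1.16, 1.70 and 2.32 CPM in PSS, 10.0, 10.3 and 10.5 in HSS, and 54.9, 0.715 and 36.6 in Vortex. It rose in Vortex against PSS by 4.14 ± 1.11 (adjusted p = 0.0393) although Vortex replicate 2 lay below every PSS library, and by 4.71 (adjusted p = 2.47e-06) without that library. Leaving out any other library ended the call (0.0629 to 0.147), and without Vortex replicate 1 the change was 3.40. Without Vortex replicate 2 it also rose in HSS, by 2.56 (adjusted p = 5.72e-05). Pla2g4c, a cytosolic phospholipase A2, fell in Vortex by 1.77 ± 0.47 against PSS (adjusted p = 0.0382) and by 2.07 ± 0.47 against HSS (adjusted p = 0.0348), both ended without any 1 HSS or PSS library (0.0682 to 0.112 and 0.051 to 0.158) and with the GC trend removed (0.116 and 0.0618). Leaving out Vortex replicate 2, Pla2g4c fell by 1.87 ± 0.50 (adjusted p = 0.0155) and by 2.18 ± 0.50 (adjusted p = 0.0125).

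**Figure D4:**
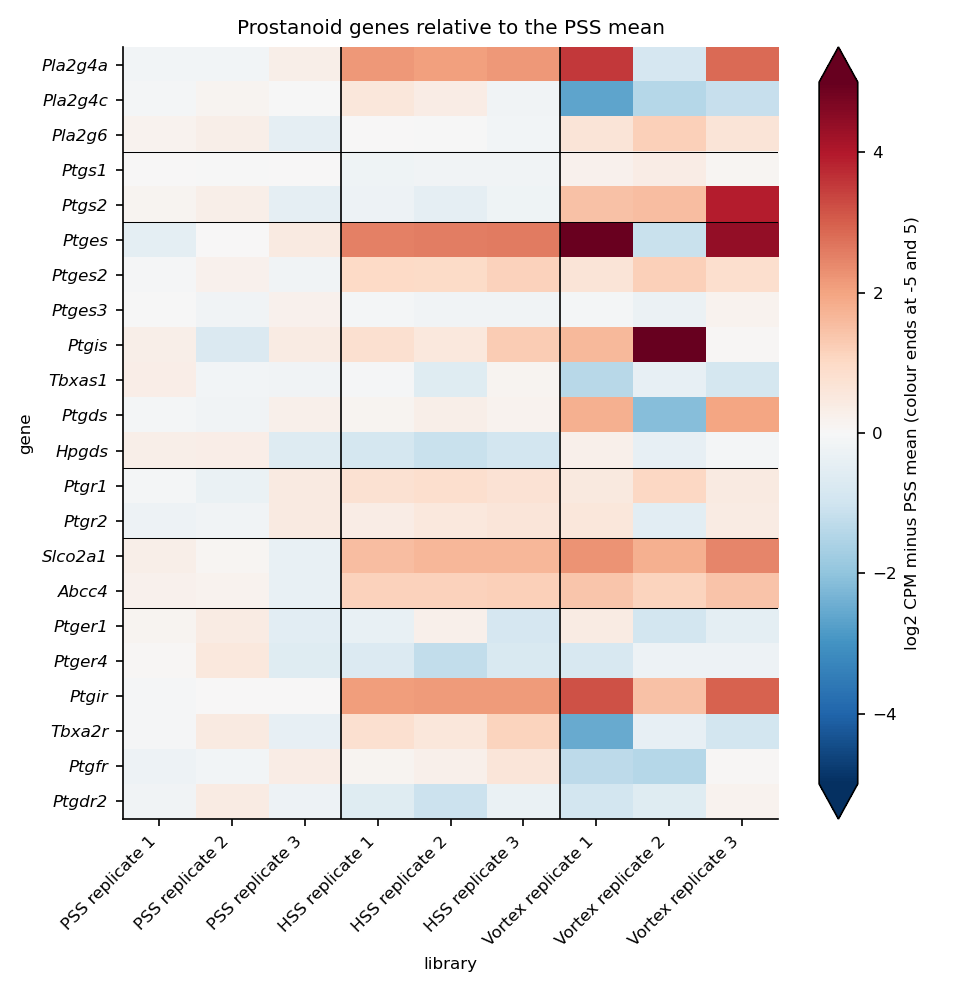
Colour map of log2 CPM minus the PSS mean for the tested prostanoid genes, with Ptgs1 and Ptgs2, in each library. Slco2a1, Abcc4 and Ptgir are lowest in PSS, and Vortex replicate 2 lies apart for Ptges, Pla2g4a and Ptgds (low) and Ptgis (high).

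Of the adrenomedullin and CGRP list, 4 of 9 genes were tested. Pam, the enzyme that amidates adrenomedullin and other peptides, had 73.2, 78.6 and 71.9 CPM in PSS, 158, 154 and 157 in HSS and 210, 103 and 148 in Vortex. It rose by 1.07 ± 0.25 in HSS (adjusted p = 0.0321) and by 1.04 ± 0.25 in Vortex (adjusted p = 0.0249), and the calls ended without any 1 HSS or PSS library (0.094 to 0.135 in HSS) or, in Vortex, also Vortex replicate 3 (0.0514 to 0.108 in all). Leaving out Vortex replicate 2 gave 1.06 ± 0.14 (adjusted p = 0.000317) and 1.26 ± 0.15 (adjusted p = 0.000207). Gpr182, an atypical chemokine receptor once assigned to adrenomedullin, had 15.7, 15 and 17.4 CPM in PSS, 1.13, 0.785 and 1.00 in HSS and 0.568, 44.5 and 3.11 in Vortex. Without Vortex replicate 2 it fell by 4.03 in HSS (adjusted p = 0.000116) and by 3.07 in Vortex (adjusted p = 0.00106). Ackr3, a scavenger receptor for chemokines and adrenomedullin, had 33.7, 34.3 and 33.4 CPM in PSS, 10.7, 11.1 and 10.4 in HSS and 10.9, 62.8 and 17.5 in Vortex. Without that library it fell by 1.66 (adjusted p = 9.65e-05) and 1.25 (adjusted p = 0.00116). With all 9 libraries edgeR called neither gene in HSS (adjusted p = 0.0886 for Gpr182 and 0.102 for Ackr3) or in Vortex (0.998 and 0.877) against PSS, while DESeq2's Wald test called both lower in HSS (0.00106 and 0.018). Of the angiotensin and kinin list, 5 of 14 genes were tested and edgeR called 0, with 1, 0 and 0 at an unadjusted p under 0.05 in the order above. DESeq2's Wald test also called 0, and edgeR without Vortex replicate 2 called 0 of 6. With only the PSS and HSS libraries, edgeR called 2 of 4, 1 higher and 1 lower, against 40.8% of all genes. With the GC trend removed and Vortex replicate 2 left out, 1 of 6 rose in each comparison, against 29.8%, 37.8% and 26.5% of all genes.

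Of the endothelin list, 1 of 6 genes was tested, Mme, a peptidase that degrades endothelin. It had 6.52, 5.5 and 7.44 CPM in PSS, 12.4, 11.9 and 9.84 in HSS and 5.36, 0.476 and 2.12 in Vortex, so that all Vortex libraries lay below all PSS and HSS libraries. With all 9 libraries edgeR did not call it, with -2.11 ± 0.64 in Vortex against HSS (adjusted p = 0.0777). It was called lower in that comparison without Vortex replicate 2 (-1.62 ± 0.35, adjusted p = 0.00927), with the GC trend removed (-1.84, adjusted p = 0.0347) and by DESeq2's Wald test (-2.12, adjusted p = 0.00801). In HSS against PSS it was 0.81 ± 0.61 (adjusted p = 0.483), or 0.81 ± 0.29 (adjusted p = 0.0583) without Vortex replicate 2. Vortex against PSS was -1.30 ± 0.63 (adjusted p = 0.202), or -0.82 ± 0.34 (adjusted p = 0.0886) without that library.

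The genes most like each of the 10 were found as the 3 tested genes with the smallest root-mean-square difference between centred log2 CPM over the 9 libraries, among 10920 genes with at least 5 CPM in 1 group. These are descriptions of these 9 libraries. The nearest to Ednrb were Kdr, Vwf and Erg at 0.807, 0.858 and 0.921, where the Ednrb profile itself had a root-mean-square size of 2.93. The 3 are genes of endothelial identity. The nearest to Ramp2 (size 2.26) were Frmd4b at 0.238, She at 0.374 and Ushbp1 at 0.386. The nearest to Edn1 (1.19) were Peg13, S100a16 and Rab3il1, at 0.238 to 0.252. Calcrl (0.718) was nearest to Armcx1, Hmgcs1 and Stard4, at 0.197 to 0.203, of which Hmgcs1 is a cholesterol synthesis enzyme and Stard4 a sterol carrier.

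The nearest to Ptgs2 (1.36) were the adhesion genes Madcam1 and Sele at 0.465 and 0.466, and Fam78b at 0.473. The nearest to Ramp3 (1.81) were Ankrd33b at 0.637, Gpr137b at 0.858 and Ppm1j at 0.874. For Ace (1.10) the nearest were Ggt1, Upp1 and Galnt18, at 0.330 to 0.341. For Adm (0.668) they were Tcim, Ypel3 and Tmem39a, at 0.190 to 0.268. Ece1 (0.452) was nearest to Marveld1, Zfp346 and Anxa11, at 0.0707 to 0.0839. Ptgs1, the flattest profile (0.184), was nearest to Pcid2, Fam149a and Qars1, at 0.0549 to 0.0627.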

How the data were processed

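Polyadenylated RNA of 9 bEnd.3 libraries was sequenced from 1.5 µg RNA each, per the labels' protocols. HISAT2, HTSeq 0.13.5 and the build GRCm39 are named in the submitters' processing notes. Whether counting used strand is not stated in the labels. Per the labels and values, the authors deposited whole-number counts per gene, without normalization. The authors also deposited FPKM values, scaled by gene length and column total, used here only for levels, ratios and an alternative test. Groups came from the labels.

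edgeR 4.0.16 under R 4.3.3 served for the counts. The filterByExpr rule kept 15774 of 31232 genes, and libraries were scaled by TMM and fitted over all 9 libraries with 1 mean per group and robust quasi-likelihood estimation. The common biological coefficient of variation was 0.35. A standard error is the log2 fold change over the square root of F. A single-gene exact permutation test of 3 against 3 cannot go below p = 0.1. The fit was tested on simulated counts with known changes. Of 2-fold changes it called 1.02% in HSS against PSS, 1.01% in Vortex against PSS and 7.14% in Vortex against HSS. For 4-fold changes the shares were 43.3%, 49.5% and 61.5%. A gene that was not called may thus still differ by 2-fold or more. DESeq2 1.42.0 and limma 3.58.1 served as alternatives, with other scalings, filters, a replicate block, a GC trend (98.5% of genes matched), only the compared libraries, and each library left out. The fits with Vortex replicate 2 left out together with another choice were added after seeing the data. Deviations from the group means correlated at -0.123 to 0.118 between same-numbered libraries and at -0.164 to 0.117 between the others. With 3 libraries per group these values show no pairing by number but cannot exclude it. The main fit did not use the numbers. The 10 genes, the pathway and marker lists and the rules were chosen with earlier results of these data known. All 10 genes are named in each comparison, and a pathway gene may be named where it was called or reached 5 CPM in a group mean. Promoters came from RefSeq on GRCm38.p6, with 9 of the 10 genes matched.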

Additional observations from a re-analysis of the deposited data

How the results depend on the processing

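Among the 647 recomputed log2 fold changes of the 10 genes, 524 kept their sign and their side of the threshold, 23 gained the call, 82 lost it and 18 turned sign. Of the 10 genes, the counts called with all 9 libraries were 3 in HSS against PSS, 5 in Vortex against PSS and 6 in Vortex against HSS. With only the compared libraries they were 7, 0 and 1. With Vortex replicate 2 left out as well, the Vortex comparisons gave 8 and 9, while the shares of all genes called went from 0.488% and 0.438% to 23.2% and 27.3%. With the GC trend removed and Vortex replicate 2 left out, HSS against PSS gave 5. limma on log2(FPKM + 0.1) and on log2(FPKM + 1) each gave 3 in Vortex against PSS, and the latter 3 in Vortex against HSS, as did keeping all genes with at least 1 count. Leaving out 1 library at a time gave 2 to 5, 2 to 8 and 1 to 7. The replicate block gave 2, 4 and 3. For the pathway genes (5, 7 and 1), the DESeq2 Wald test gave 12, 10 and 9, while it called 15.6%, 22.2% and 17.2% of all genes against 7.87%, 13.4% and 7.04% by edgeR. DESeq2 gave no adjusted p for Edn1.

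Signs turned for 3 genes. In Vortex against PSS, Edn1 (-0.05) was 0.39 with the GC trend removed, 0.05 without PSS replicate 1, 0.36 without Vortex replicate 1 and 0.41 without Vortex replicate 3. Ednrb (-0.27) was 0.35 with the GC trend removed, 0.19 without Vortex replicate 1 and -0.82 without Vortex replicate 2. Ramp2 (0.13) was -0.055 with library totals, -1.33 and -1.19 with limma on FPKM plus 0.1 and plus 1, -1.14 with limma-voom, -0.76 with the replicate block and -0.55 with the GC trend removed. Ramp2 was 0.61 without Vortex replicate 1, -2.13 without Vortex replicate 2, -2.13 with only the compared libraries and that library left out, and -2.39 with the GC trend removed and that library left out. In Vortex against HSS, Edn1 (1.77) was 2.24 without Vortex replicate 3, -0.31 without Vortex replicate 2, -0.31 with only the compared libraries and that library left out, and -0.29 with the GC trend also removed. The cause was not tested. Library totals in place of TMM moved the median of all genes from 0.11 to -0.06 in Vortex against PSS and from 0.10 to -0.03 in Vortex against HSS. Depth limits Ednrb in HSS (12 to 25 counts) and Ramp3 in both laminar groups (22 to 39).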

Other observations

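Vortex replicate 2 lay outside the range of the other 8 libraries in several prostanoid genes. Among them were Ptges (lowest) and, by a small margin, Ptgs1 (highest, at 248.9 CPM against 220 in Vortex replicate 1). The share of all genes for which this held is not given here. The cause was not tested. A further 3 such genes, chosen after their values were seen, are described here. Pla2g4a, the cytosolic phospholipase that frees arachidonic acid, had 41.0, 40.3 and 54.2 CPM in PSS, 202, 187 and 199 in HSS, and 526, 24.7 and 324 in Vortex replicates 1, 2 and 3. Vortex replicate 2 was thus below all PSS libraries and the other Vortex libraries above all HSS libraries. Without Vortex replicate 2, Pla2g4a rose by 2.12 in HSS (edgeR adjusted p = 3.25e-05) and by 3.23 in Vortex (adjusted p = 5.19e-06), both on the log2 scale against PSS. Ptgis, the prostacyclin synthase, had 40.5 CPM in Vortex replicate 2 and 0.243 to 1.64 CPM in the other 8 libraries. Ptgds, the lipocalin-type prostaglandin D synthase, had 44.0, 2.86 and 51.1 CPM in Vortex against 11.5 to 15.3 in PSS and 14.2 to 15.6 in HSS, and without Vortex replicate 2 it rose in Vortex against PSS by 1.88 (adjusted p = 3.46e-05).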
